A study of Mus musculus with 20 samples.

Results

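The translation initiation factors of the mouse were measured in hair follicle stem cells, the long-lived epithelial cells of the follicle bulge that rest in telogen and divide when a new hair grows in anagen. The genes were chosen by symbol, as every gene whose name begins with Eif and a digit from 1 to 6, and each was represented by its brightest probe among those selected on a signal well above background, so a gene's level and its detection are descriptions here. Of 68 such symbols in the RefSeq table, 56 were matched by 81 array probes and 12 were not matched, 11 of them pseudogenes and 1 a long noncoding RNA. All 56 passed the filter on dim signals, among 18727 genes tested in all. On all 20 arrays, 55 of them were well above background. The exception was Eif2ak4, measured well above background on 3 of 3 ND 3M, 2 of 3 HFD 3M, 2 of 3 ND 4d, 2 of 3 HFD 4d and 1 of 3 aged telogen arrays and on each anagen array.

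All samples came from male mice, and the labels name no strain or transgene. A normal diet (ND 3M) or a high fat diet (HFD 3M) was given for 3 months to mice 5 months old, and the same diets (ND 4d and HFD 4d) for 4 days to mice 2 months old, while a further group, aged, was 24 months old with no diet named. Each of these 5 conditions had 3 telogen arrays and 1 anagen array. The labels do not say whether replicates were separate animals or pools, so p-values measure only the spread between these arrays.

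Initiation factors bring the small ribosomal subunit, the initiator tRNA and the mRNA together. eIF2 carries the initiator tRNA and is recycled by the exchange factor eIF2B, and kinases that phosphorylate eIF2 alpha lower its supply under stress. eIF4F, made of the cap-binding eIF4E, the scaffold eIF4G and the RNA helicase eIF4A, recruits the mRNA, and the 4E-BPs hold eIF4E back until mTORC1 phosphorylates them. eIF3 joins these parts on the small subunit, eIF1 and eIF1A guide scanning to the start codon, and eIF5B joins the large subunit. Protein synthesis is known to be low in resting hair follicle stem cells and to rise when they are activated.

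Promoters of these genes were searched for the E-box CACGTG, the site bound by Myc and Max, since Myc is known to act on ribosome and translation genes. Windows of 250 bases before the start, from RefSeq on GRCm38.p6, were found for 44 of the 56 genes. The first sequences below belong to the 2 genes that passed the test between anagen and telogen, and the others to 2 members of eIF4F with an E-box, which is in capitals.
Eif2s1, chr12:78861822-78862071, plus strand: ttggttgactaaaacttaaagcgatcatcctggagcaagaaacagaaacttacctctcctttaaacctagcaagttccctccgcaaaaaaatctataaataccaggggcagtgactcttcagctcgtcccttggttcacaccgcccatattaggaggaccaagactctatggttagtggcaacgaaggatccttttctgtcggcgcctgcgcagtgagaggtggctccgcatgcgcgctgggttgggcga
Eif4a2, chr16:23107218-23107467, plus strand: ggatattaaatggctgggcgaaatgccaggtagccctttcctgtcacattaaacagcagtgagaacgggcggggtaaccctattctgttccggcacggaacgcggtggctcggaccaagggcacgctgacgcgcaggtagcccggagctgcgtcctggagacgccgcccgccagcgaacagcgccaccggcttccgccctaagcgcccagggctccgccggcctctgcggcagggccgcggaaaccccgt
Eif4a1, chr11:69672424-69672673, minus strand: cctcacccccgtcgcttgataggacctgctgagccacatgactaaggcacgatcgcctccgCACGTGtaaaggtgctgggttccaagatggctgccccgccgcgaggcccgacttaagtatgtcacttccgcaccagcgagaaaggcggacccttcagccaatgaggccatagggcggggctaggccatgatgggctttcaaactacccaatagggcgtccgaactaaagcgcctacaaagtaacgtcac
Eif4e, chr3:138527018-138527267, plus strand: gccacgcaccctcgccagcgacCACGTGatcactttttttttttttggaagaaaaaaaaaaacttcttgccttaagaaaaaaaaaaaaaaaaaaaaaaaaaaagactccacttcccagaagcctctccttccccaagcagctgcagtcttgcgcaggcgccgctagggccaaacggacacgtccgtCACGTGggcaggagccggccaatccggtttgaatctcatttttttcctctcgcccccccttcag
The E-box of Eif4a1 began at base -189 from the start, and those of Eif4e at -228 and -64 in the second of its 2 windows, while the first held none. No E-box was in the windows of Eif2s1 and Eif4a2. The hexamer, which reads the same on both strands, was in the windows of 9 of 44 members (20.5%), against 6.86% of 27025 genes with a window and 8.48% of the 14794 of those that were tested on the arrays. The 9 were Eif1b, Eif3f, Eif3k, Eif4a1, Eif4e, Eif4g1, Eif4h, Eif5a and Eif5a2. In anagen against telogen, 7 of these 9 had a difference above 0 and 0 were called, against 24 of the 35 without the hexamer, of which 2 were called. The CCAAT-ATF element TGATGNAA, searched on both strands, was in 1 member (Eif2s3x, 2.27%, against 3.91% of all genes). A C followed by 4 pyrimidines from the first transcribed base was in 2 (Eif2s3x and Eif3f, 4.55% against 3.01%).

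Levels are log2 intensities relative to the 75th percentile of each array, so a difference of 1 is a doubling. The share of spots with a signal well above background ran from 60.7% on the ND 3M anagen array to 83.49% on an ND 4d telogen array. The labelled cell type was checked by a list of 12 genes of bulge cells, among them Cd34, Krt15, Lgr5, Lhx2, Sox9, Krt5, Krt14 and Itga6. Genes of basal keratinocytes in general, such as Krt5 and Krt14, are among them, so the list is not specific to the bulge. All 12 were well above background on all 20 arrays, and their summed level was 403 to 706 on telogen and 371 to 539 on anagen arrays. Markers of other cells were present too. All 8 suprabasal epidermal genes were also well above background on all 20 arrays, so detection alone does not set the bulge apart. The summed level of 8 suprabasal epidermal genes was 113 to 289 on telogen and 176 to 271 on anagen arrays, and that of 6 fibroblast genes 18.2 to 48.7 and 20.4 to 29.6. For 8 immune genes it was 1.67 to 14.5 and 2.24 to 24, while none of the 3 endothelial genes tested was well above background on all arrays. All anagen arrays lay in column 1 of their slides and all telogen arrays in columns 2 to 4, so phase and column cannot be told apart. The HFD 3M anagen array was on slide 2 and its telogen arrays on slide 1. The HFD 4d anagen array was on slide 3 and its telogen arrays on slide 2. Aged telogen was on slide 3, scanned on another day, which held no younger telogen array.

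Between anagen and telogen, 2 of the 56 initiation factor genes changed: Eif2s1, the alpha subunit of eIF2, rose, and Eif4a2, a paralog of the eIF4A helicase, fell. Neither passed when the 5 differences within conditions were tested against 0 (limma, adjusted p = 0.0907 and 0.0836). The 2 calls were 3.57% of the members, against 6.11% of all genes (1145 genes). For calls above telogen the background was 2.81%, and for calls below it 3.31%. At an unadjusted p below 0.05 stood 10 members (17.9%), 8 above and 2 below telogen, against 22.9% of all genes. Of the calls over all genes 45.9% were above telogen, and 66% with median scaling. The median difference of the members was 0.25, against -0.16 over all genes, and 38 of 56 (67.9%) were above 0, against 39.6% of all genes. Array scaling moved the median of all genes, to -0.02 with quantile normalization and 0.06 with median scaling, while the members' median stood 0.31 to 0.43 above it under all 5 scalings tried. Across them 36 members were above 0 each time, 8 below, and 12 changed sign, 7 of them in eIF3. The background of all genes was not matched to the members in brightness.

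**Figure D1:**
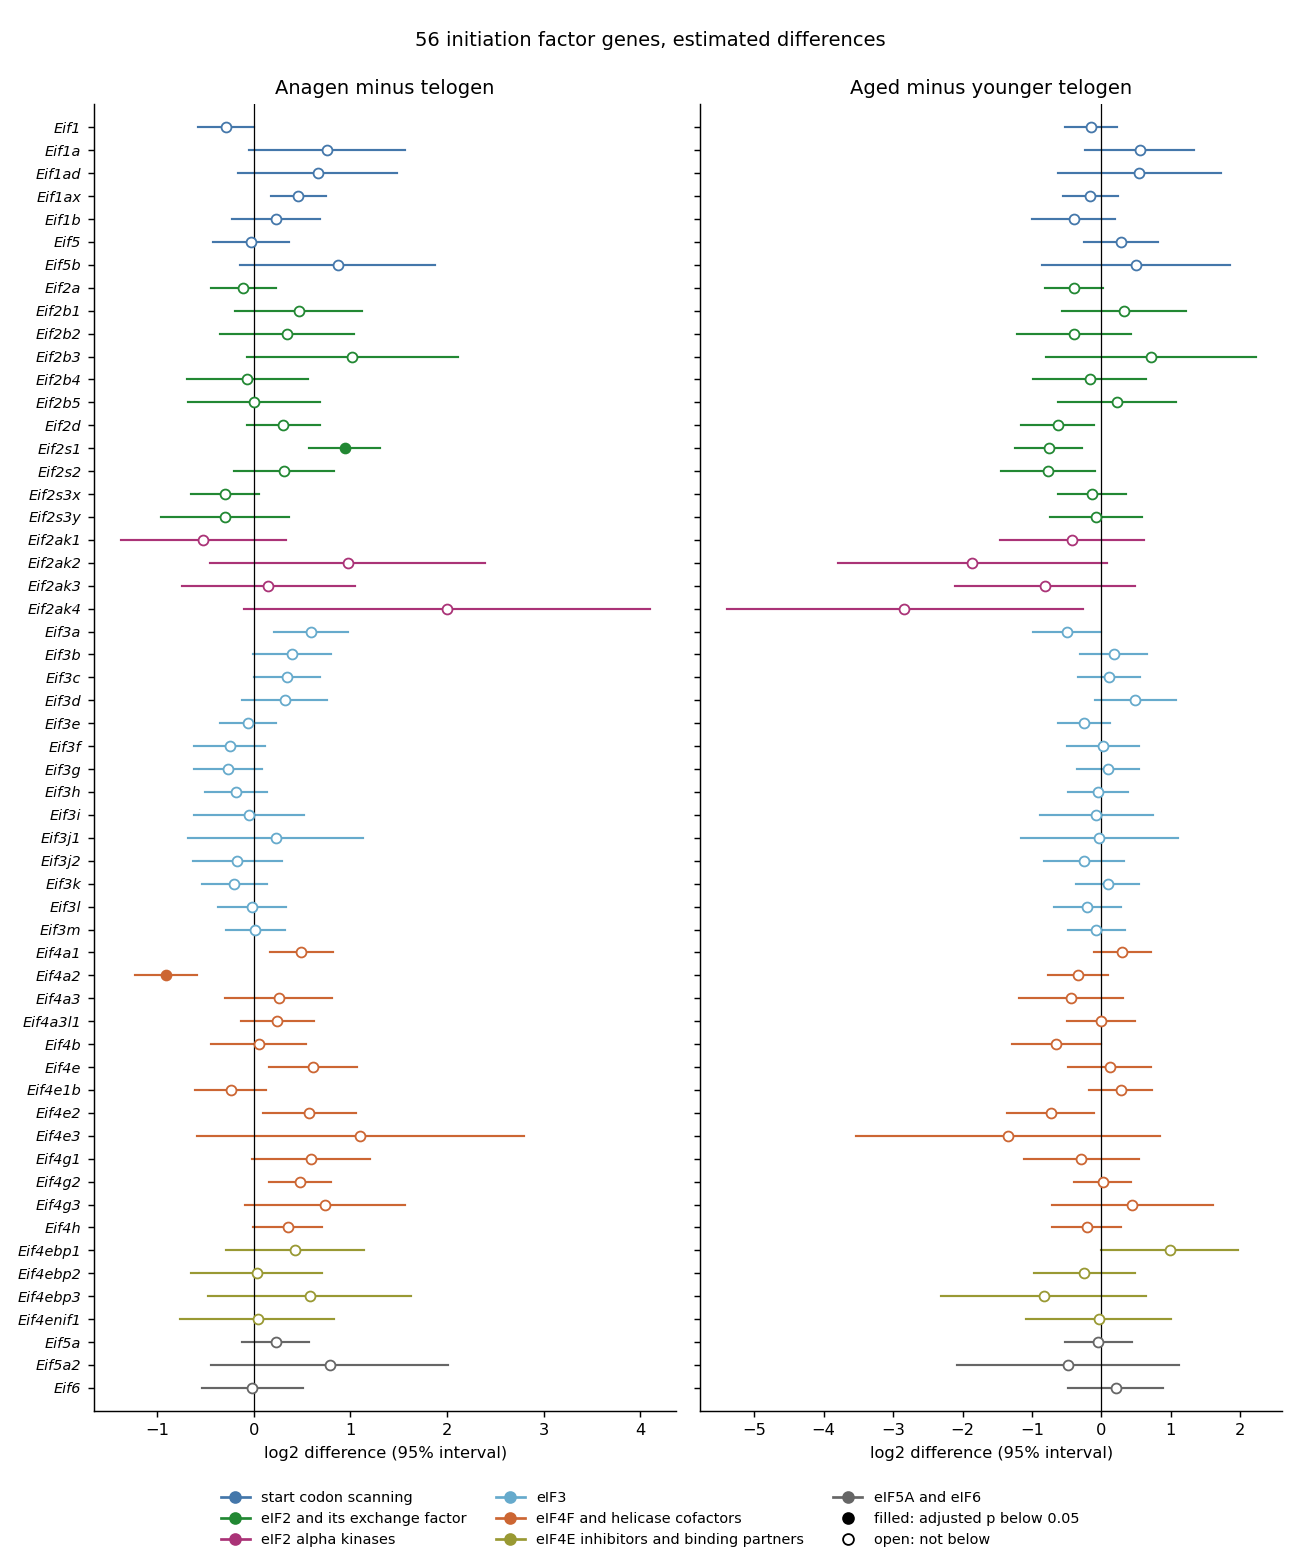
Estimated log2 differences (x axis, with 95% intervals) of the 56 genes, grouped by role in colour. Anagen minus telogen is on the left, aged minus the mean of the 4 younger telogen groups on the right; filled points passed an adjusted p below 0.05, which were Eif2s1 (0.94) and Eif4a2 (-0.91) on the left and none on the right.

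Eif2s1 encodes the subunit whose phosphorylation by the eIF2 alpha kinases restrains initiation. Its telogen levels were 1.36, 1.38 and 1.52 in ND 3M, 1.24, 1.77 and 1.72 in HFD 3M, 1.68, 1.57 and 1.67 in ND 4d, 1.57, 1.71 and 0.90 in HFD 4d and 0.88, 0.95 and 0.43 in aged mice. On the anagen arrays it was 2.50 in ND 3M, 2.54 in HFD 3M, 2.35 in ND 4d, 1.96 in HFD 4d and 2.15 in aged mice. Every anagen array was above every telogen array, and the aged telogen arrays were among the lowest. The difference was 0.94 ± 0.17 (standard error), 1.92-fold (limma, adjusted p = 0.00407). The largest of the 5 differences within a condition, 1.40, was in aged mice, whose telogen level was the lowest.

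The other subunits of eIF2 did not pass the test. Eif2s2, the beta subunit, differed by 0.31 ± 0.24 and the gamma subunits Eif2s3x and Eif2s3y by -0.30 ± 0.17 and -0.30 ± 0.31. Eif2s3x was below telogen in 5 of 5 conditions. Among the subunits of eIF2B none was called, with differences from -0.07 (Eif2b4) to 1.02 ± 0.51 (Eif2b3), and that of the catalytic Eif2b5 was 0.00 ± 0.32. For the whole role of 11 genes, with Eif2a and Eif2d, which can deliver initiator tRNA without eIF2, the median was 0.30, with 7 above 0.

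Eif4a2 had telogen levels of 4.23, 4.23 and 3.98 in ND 3M, 4.02, 3.66 and 4.07 in HFD 3M, 4.33, 4.28 and 4.53 in ND 4d, 3.99, 4.39 and 4.47 in HFD 4d and 4.16, 3.64 and 3.73 in aged mice. In anagen it was 3.36 in ND 3M, 3.12 in HFD 3M, 3.31 in ND 4d, 3.07 in HFD 4d and 3.16 in aged mice. All 5 anagen arrays were below all 15 telogen arrays. The difference was -0.91 ± 0.15, a 1.88-fold lower level (limma, adjusted p = 0.00195). A second, dimmer probe of Eif4a2 gave -1.44 ± 0.21 (limma, adjusted p = 0.0013 over all 43395 probes tested). Eif2s1 and Eif4a2 were the only members without overlap between the phases, one in each direction, where 1.51% of all genes had none.

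Eif4a1, which encodes the main eIF4A helicase, leaned the other way from its paralog. Its telogen levels were 3.46, 3.29 and 3.63 in ND 3M, 3.46, 3.40 and 3.81 in HFD 3M, 3.64, 3.44 and 3.32 in ND 4d, 3.26, 3.24 and 3.09 in HFD 4d and 3.45, 3.95 and 3.76 in aged mice. Anagen levels were 3.84 in ND 3M, 3.72 in HFD 3M, 3.82 in ND 4d, 4.18 in HFD 4d and 4.31 in aged mice. The lowest anagen array stood above 12 of 15 telogen arrays, and the difference of 0.49 ± 0.15 missed the threshold (limma, adjusted p = 0.0677). The change of Eif4a1 relative to that of Eif4a2, which scaling by 1 factor per array cannot move, ran from -0.66 to 1.01 around its median on the 15 telogen arrays and from 1.19 to 1.87 on the 5 anagen arrays. These ranges did not overlap, but those of Eif4a2 alone did not either, so this is no separate result. The 2 highest telogen values, 1.01 and 0.75, were aged. This pair was picked after its values were seen, and no test was made of it.

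**Figure D2:**
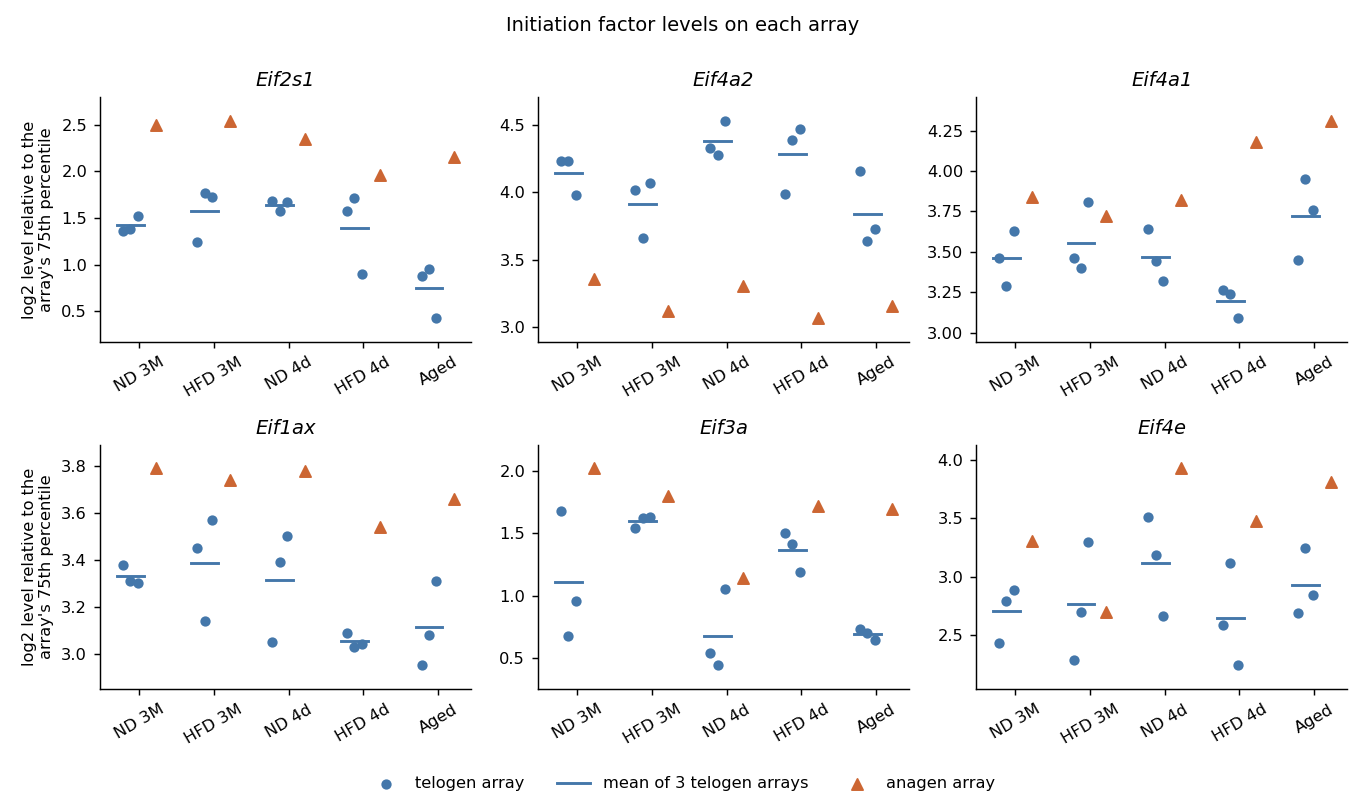
Level of 6 initiation factor genes on each array (y axis, log2 relative to the 75th percentile of the array) by condition (x axis), with 3 telogen arrays as circles, their mean as a line and the anagen array as a triangle. Eif2s1 is higher and Eif4a2 lower on every anagen array than on every telogen array; the phases overlap in the other 4 genes.

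Apart from Eif4a2, the genes grouped with eIF4F and its cofactors lay mostly above telogen without passing the test. The role was drawn widely, with Eif4a1, Eif4a2 and paralogs such as Eif4a3, Eif4a3l1, Eif4e2 and Eif4g2. Its counts are therefore not those of eIF4F alone. In this role 11 of 13 genes were above 0, with a median of 0.48, and 1 (Eif4a2) was called. The cap-binding Eif4e was between 2.24 and 3.51 in telogen, with a median of 2.79, and between 2.70 and 3.93 in anagen, a difference of 0.61 ± 0.22 (limma, adjusted p = 0.104). The HFD 3M anagen array was its lowest, 0.07 below the mean of its telogen arrays. The scaffold Eif4g1 differed by 0.59 ± 0.29, and its other 2 probes by 0.69 and 0.72. Eif4g2, a scaffold that does not bind eIF4E, ranged from 3.31 to 4.07 in telogen and from 3.77 to 4.40 in anagen. Its difference was 0.48 ± 0.15 (limma, adjusted p = 0.0732), and its other 2 probes gave 0.54 and 0.63, the last passing the threshold in the fit over probes (adjusted p = 0.0428).

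Among the scanning factors, Eif1ax, which encodes eIF1A, was the member closest to the threshold. Its telogen levels ran from 2.95 to 3.57 with a median of 3.30, and its anagen levels were 3.79, 3.74, 3.78, 3.54 and 3.66 in the order ND 3M, HFD 3M, ND 4d, HFD 4d and aged. The lowest anagen array stood above 14 of the 15 telogen arrays. The difference was 0.46 ± 0.13 (limma, adjusted p = 0.0519), and within the 5 conditions it lay between 0.35 and 0.54. Eif1, the start codon gatekeeper, was below telogen in each condition, by -0.29 ± 0.14 in the fit, and Eif5, which makes eIF2 hydrolyse its GTP, differed by -0.03 ± 0.19.

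The 14 genes of eIF3 were the tightest role and stayed close to 0. Their standard deviations within telogen groups had a median of 0.28, against 0.41 for all members and 0.67 for all genes, without matching for brightness. The median anagen difference was -0.04, with 6 above 0, and it was 0.05 with quantile normalization and 0.18 with median scaling, so the role has no settled direction. Eif3a, the largest scaffold subunit, was the highest of them at 0.59 ± 0.18 (limma, adjusted p = 0.0641). It ranged from 0.44 to 1.68 in telogen and from 1.14 to 2.02 in anagen. Eif3e (-0.06 ± 0.14), Eif3f (-0.25 ± 0.17) and Eif3g (-0.27 ± 0.17) were not called.

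The eIF2 alpha kinases were more variable, with a median standard deviation of 1.25 within telogen groups. Eif2ak3 and Eif2ak4 were dim, with telogen medians of -1.78 and -4.03, while Eif2ak1 was at 2.98 and Eif2ak2 at 1.29. None of the 4 passed the test in anagen. Eif2ak3 (PERK) differed by 0.15 ± 0.42 and Eif2ak4 (GCN2) by 2.00 ± 0.99, the latter between -8.46 and -1.32 in telogen and -4.82 and -0.98 in anagen. The inhibitors of eIF4E were not called either: Eif4ebp1 differed by 0.43 ± 0.34 and Eif4ebp2 by 0.03 ± 0.32. Eif5a, which helps the ribosome past difficult stretches, differed by 0.23 ± 0.16 and Eif6, which keeps the large subunit apart, by -0.02 ± 0.25.

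Within the 5 conditions, the anagen array lay on the same side of the telogen mean each time for 16 members (28.6%), against 18.9% of all genes. Above telogen in all 5 were 12 members (21.4%), against 9.25% of all genes: Eif1ad, Eif1ax, Eif2d, Eif2s1, Eif3a, Eif3c, Eif4a1, Eif4e2, Eif4g2, Eif4g3, Eif4h and Eif5a. Below it in all 5 were 4 members (7.14%), against 9.67% of all genes: Eif1, Eif2s3x, Eif3f and Eif4a2. With quantile normalization 11 members were above and 1 below, against 10.1% and 8.36% of all genes. With median scaling 13 were above and 1 below, against 11.59% and 5.61% of all genes. On the HFD 3M anagen array the difference was 0.01 for Eif4h, 0.17 for Eif4a1 and -0.05 for Eif1, the smallest of the 5 in each.

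**Figure D3:**
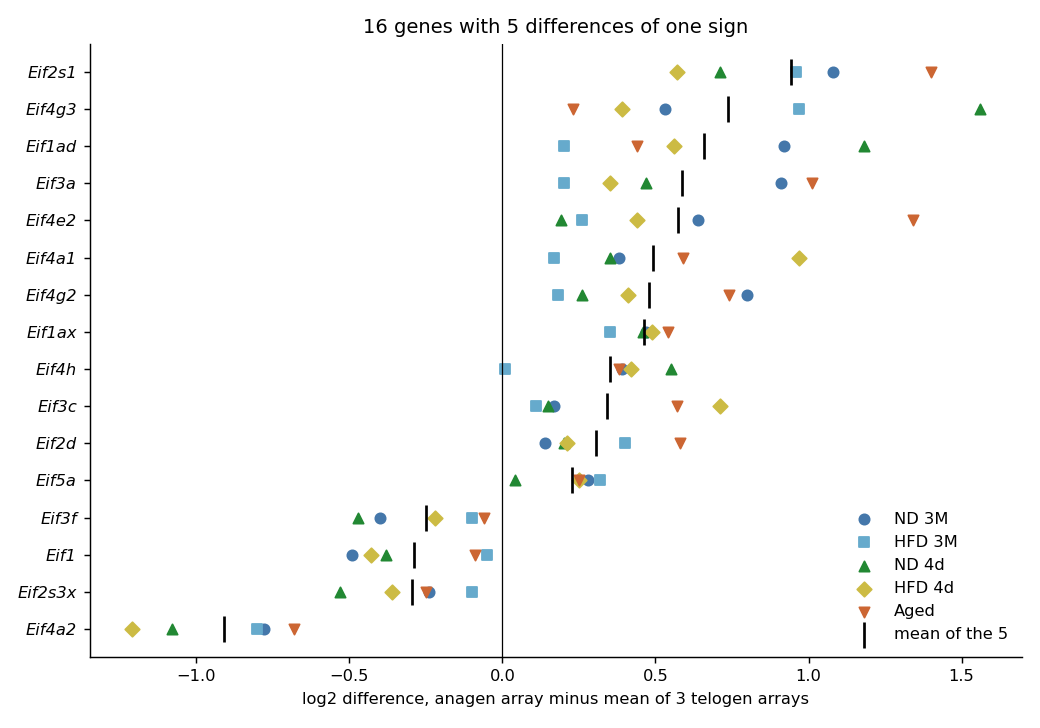
Differences between the anagen array and the mean of 3 telogen arrays (x axis, log2) in each of 5 conditions (symbols) for the 16 genes whose 5 differences share a sign; the black bar is their mean. Eif2s1 lies between 0.57 and 1.40 and Eif4a2 between -1.21 and -0.68.

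Eif2s1 and Eif4a2 passed with each of the 20 arrays left out in turn, and the number of further calls moved with single arrays. Without the HFD 3M anagen array 8 members passed (Eif4a2 lower; Eif2s1, Eif1a, Eif4a1, Eif3a, Eif4e, Eif4g2 and Eif1ax higher) of 2056 genes in all, and without HFD 3M telogen replicate 3, 5 members passed, of 1265 genes in all. Leaving out each of the other 4 anagen arrays left 555 to 761 genes called in all. In the 3 conditions with both phases on 1 slide, Eif2s1 was called (1.06, adjusted p = 0.041, limma) and Eif4a2 was not (-0.85, adjusted p = 0.0714, limma). This last set of arrays was chosen after the data had been seen.

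Proliferation genes rose on the same anagen arrays. Of 20 proliferation genes 15 rose and 0 fell, with a median of 2.63, led by the mitotic cyclin Ccnb2 (3.10 ± 0.50), the replication helicase subunits Mcm5 (2.41 ± 0.42) and Mcm2 (2.86 ± 0.56) and the checkpoint kinase Bub1 (4.90 ± 0.88). In the 3 conditions with both phases on 1 slide, 3 of the 20 passed. Of the 12 genes in the bulge list 4 fell: Cd34 (-2.19 ± 0.20), Krt15 (-0.81 ± 0.18), Col17a1 (-0.72 ± 0.16) and Foxc1 (-0.97 ± 0.25). With median scaling 1 of the 12 passed, and 1 in the 3 conditions with both phases on 1 slide. Markers of other cells were called too: the fibroblast collagens Col1a2 (-1.90 ± 0.32) and Col6a1 (-1.44 ± 0.22), the melanocyte regulator Mitf (-2.34 ± 0.54) and the haemoglobin gene Hba-a2 (-1.24 ± 0.36) fell. The fibroblast proteoglycan Dcn (2.44 ± 0.53), the suprabasal keratin Krt1 (1.26 ± 0.36), the hair follicle keratin Krt28 (1.37 ± 0.34) and the immune gene Laptm5 (2.13 ± 0.60) rose. Dcn and Laptm5 were not well above background on all 20 arrays. Outside the fibroblast list, each of these genes was the only call in its list. The other melanocyte genes tested ran from -0.36 (Sox10) to 1.05 (Pmel), and the other immune genes from -0.91 (Cd74) to 0.58 (Lyz2). In these bulk samples a change in the share of cells and a change in RNA per cell cannot be told apart, and the part of such shifts in the initiation factor results was not tested.

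Cytosolic aminoacyl-tRNA synthetases load tRNAs with their amino acids, and their list also held the partner proteins Aimp1 and Aimp2. Of the 21 genes tested in it, 2 rose (Vars, 1.17 ± 0.32, and Gars, 1.00 ± 0.29) and 19 were above 0, with a median of 0.41. Of 35 ribosome biogenesis genes 27 were above 0 with a median of 0.46, but the only call was the small-subunit nuclease Nob1, which fell (-0.99 ± 0.23). Of 10 termination and recycling factors Abce1, the ATPase that splits ribosomes after termination, rose (0.90 ± 0.20), and 9 were above 0. In the 3 conditions with both phases on 1 slide, 0 genes of these 3 lists were called. Of 9 elongation factors 0 were called, the smallest p belonging to the kinase Eef2k (-0.41 ± 0.16, adjusted p = 0.131, limma) and 1 being below an unadjusted p of 0.05.

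Upstream of eIF4F, 0 of 21 mTORC1 pathway genes were called, with 3 below an unadjusted p of 0.05 and the smallest p for the complex's subunit Mlst8 (1.39 ± 0.47, adjusted p = 0.0923, limma). Among 18 poly(A) binding and cap-associated regulators 0 were called and 3 were below an unadjusted p of 0.05, led by the translational repressor Gigyf2 (-0.64 ± 0.22, adjusted p = 0.094, limma). In the integrated stress response, the programme that follows eIF2 alpha phosphorylation, 1 of 23 genes rose, the transcription factor Cebpb (1.01 ± 0.22), and 0 fell. In the Myc family of 9 genes the repressor Mnt fell (-1.40 ± 0.35) and Mxd3 rose (1.18 ± 0.34), while Myc itself differed by -0.64 ± 0.21 (limma, adjusted p = 0.0838). Its paralog Mycn, also not called, lay on the other side at 2.34 ± 0.76 (limma, adjusted p = 0.079). Neither list held a call in the 3 conditions with both phases on 1 slide.

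**Figure D4:**
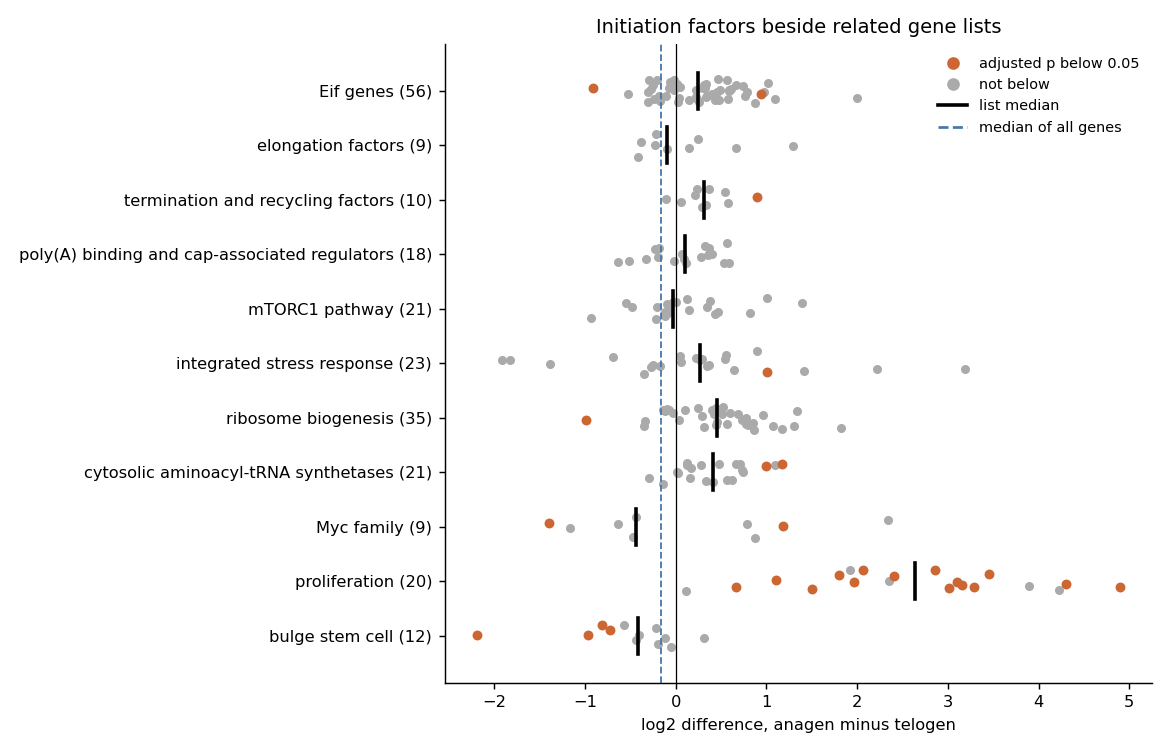
Log2 differences between anagen and telogen (x axis) of the 56 initiation factor genes and of 10 other gene lists (rows, number tested in brackets); each point is a gene, orange where the adjusted p is below 0.05. The black bar is the list's median, 0.25 for the initiation factors and 2.63 for proliferation, and the dashed line the median of all genes, -0.16.

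In aged against younger telogen, 0 of the 56 initiation factor genes passed the test (limma), where 0.107% of all genes did. At an unadjusted p below 0.05 stood 8 members (14.3%), against 10.3% of all genes: Eif4ebp1 above, and Eif2s1, Eif2d, Eif4e2, Eif2s2, Eif2ak4, Eif3a and Eif4b below. The median difference was -0.10, against 0.02 over all genes, and 36 of 56 were below 0; with the percentile taken only over detected probes it was 29 of 56. No member's 3 aged arrays lay wholly outside the 12 younger ones, where 1.2% of all genes did.

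Eif2s1 had the smallest p, with a difference of -0.76 ± 0.22 (limma, adjusted p = 0.275), from the aged levels of 0.88, 0.95 and 0.43 against 0.90 to 1.77 in the younger groups. The HFD 4d replicate at 0.90 lay among the aged values, so the groups overlap. Eif2s2 differed by -0.77 ± 0.31, Eif2d by -0.62 ± 0.24 and the cap-binding homolog Eif4e2 by -0.73 ± 0.29. Eif4ebp1, the mTORC1-controlled inhibitor of eIF4E, was at 0.82, 0.00 and 1.55 in aged telogen and differed by 0.99 ± 0.45 (limma, adjusted p = 0.482). Its younger values spanned -1.63 to 0.76.

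All 4 eIF2 alpha kinases were below 0 in aged telogen, with a median of -1.34 and 0 called. Eif2ak2 was at -0.15, 1.59 and -4.12 on the aged arrays, so its difference rests on replicate 3. A second, dimmer probe of Eif2ak1 gave 0.14 ± 0.74. Eif2ak4 had the widest difference, -2.84 ± 1.18 (limma, adjusted p = 0.439), with aged levels of -4.76, -7.79 and -7.24, but it was well above background on only 1 of those 3 arrays and a single ND 4d array was at -8.46. Eif2ak3 differed by -0.81 ± 0.60, and by 0.07 without aged replicate 3. With slide as a term over all 20 arrays, which here rests on the single anagen arrays, all 4 kinases were above 0 (median 0.69) and Eif2s1 differed by -0.11. Aged telogen and its slide therefore cannot be told apart for these genes.

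Other members were nearer to 0 in aged telogen. Eif4a1 differed by 0.30 ± 0.19, Eif4a2 by -0.34 ± 0.20, Eif4e by 0.12 ± 0.28 and Eif4g1 by -0.29 ± 0.38. In eIF3, Eif3a was at 0.73, 0.70 and 0.64, a difference of -0.50 ± 0.23, and Eif3d at 0.49 ± 0.27 was the highest. Eif1a, Eif5 and Eif6 differed by 0.56 ± 0.36, 0.29 ± 0.25 and 0.21 ± 0.32. Eif4e1b, a cap-binding paralog, differed by 0.28 ± 0.21, Eif1 by -0.15 ± 0.17, Eif2b5 by 0.22 ± 0.39, Eif3e by -0.25 ± 0.17, Eif4ebp2 by -0.25 ± 0.33 and Eif5a by -0.05 ± 0.22. The proliferation list, the bulge list and the 8 lists of translation and its control held 0 calls in this comparison, with 0 to 5 genes each at an unadjusted p below 0.05: the smallest adjusted p among the synthetases was that of Lars (-1.14 ± 0.31, limma, 0.23), among ribosome biogenesis genes that of the nucleolar Nop58 (-1.78 ± 0.50, limma, 0.255) and in the mTORC1 pathway that of the kinase Rps6kb1 (-0.85 ± 0.26, limma, 0.277).

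Against the single normal diet groups, aged telogen again gave 0 calls among the members, where 0.0641% of all genes were called against ND 3M and 0.0374% against ND 4d. At an unadjusted p below 0.05 there were 4 members (7.14%) against 11.9% of all genes for ND 3M, and 5 members (8.93%) against 7.85% for ND 4d. These comparisons share the aged arrays with the one above. Eif2s1 differed by -0.67 ± 0.28 against ND 3M and by -0.89 ± 0.28 against ND 4d. Smallest in p against ND 3M were Eif2d (-0.87 ± 0.31) and Eif2s2 (-1.11 ± 0.39) below and Eif4e1b (0.51 ± 0.26) and Eif5 (0.52 ± 0.31) above. Against ND 4d, Eif2ak3 (-1.79 ± 0.75) lay below and Eif4ebp1 (1.41 ± 0.57) and Eif4g3 (1.61 ± 0.68) above. Between ND 3M and ND 4d telogen, mice 5 and 2 months old on 2 different slides, 0 members were called against 0.016% of all genes, and 2 (3.57%) were below an unadjusted p of 0.05, against 11.8% of all genes. The scaffold Eif4g3 had the smallest p, at 1.94 ± 0.68 (limma, adjusted p = 0.349). Eif4ebp1 differed by 0.97 ± 0.57, Eif4e1b by -0.59 ± 0.26 and the subunit-joining factor Eif5b by -1.65 ± 0.78.

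High fat diet gave 0 calls among the members after 3 months, after 4 days and averaged over both durations, and 0% of all genes were called in each (limma). The diet by duration term also gave 0 calls and 0% of all genes. At an unadjusted p below 0.05 there was 1 member (1.79%) after 3 months, against 3.9% of all genes, and there were 2 (3.57%) after 4 days, against 4.36%. Over both durations there were 2 (3.57%), against 4.29%, and in the diet by duration term 3 (5.36%), against 3.74%. Eif2b5, the catalytic subunit of eIF2B, was at 2.07, 1.95 and 2.31 in ND 3M and 1.44, 0.30 and 1.30 in HFD 3M, and at 1.17, 2.18 and 2.21 in ND 4d and 1.80, -0.26 and 0.96 in HFD 4d. Averaged over durations it differed by -1.06 ± 0.35 (limma, adjusted p = 1). The values of Eif2b5 overlap after 4 days and not after 3 months. The gene was named for its small p, and the share of all genes without overlap in these comparisons was not counted.

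Eif3a lay on the other side. It was at 1.68, 0.68 and 0.96 in ND 3M, 1.54, 1.62 and 1.63 in HFD 3M, 0.54, 0.44 and 1.05 in ND 4d and 1.5, 1.41 and 1.19 in HFD 4d, a difference of 0.59 ± 0.20 averaged over durations (limma, adjusted p = 1). An ND 3M replicate was its highest telogen value. After 3 months Eif5 (0.43 ± 0.31) and Eif2b1 (-0.97 ± 0.52) were next in p, and after 4 days Eif4g3 (1.46 ± 0.68) and Eif1b (-0.90 ± 0.35). Over both durations Eif2ak2 (1.61 ± 0.80) and Eif5a2 (-1.27 ± 0.66) were. In the diet by duration term they were Eif1b (1.17 ± 0.50), Eif5b (2.22 ± 1.11), Eif2b1 (-1.76 ± 0.73) and Eif4g3 (-2.18 ± 0.96). ND 3M and HFD 3M telogen shared slide 1 and ND 4d and HFD 4d telogen slide 2, so within each slide the diets were in different rows. The 95% interval of a member's difference had a median half-width of 0.78 in comparisons of 2 telogen groups, 0.62 for aged against younger telogen and 0.47 for anagen, and the number of arrays limits this precision.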

How the data were processed

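Total RNA was purified with a column kit and labelled with Cy3, per the labels' protocols, and 20 samples were hybridised singly. The isolation of the cells is not stated in the labels. Per the file headers, the authors' scanner files hold background-subtracted spot intensities from Agilent Feature Extraction 10.7.1.1, with no scaling between arrays. The authors' deposited series table holds a signal per probe, which equalled processed intensity over the array's 75th percentile (correlation at least 0.9999) and was not centred; its columns had medians from 0.088 to 0.168.

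Intensities were averaged over a probe's spots, with outlier spots set to missing, log2-transformed, and expressed relative to the log2 75th percentile of the array. Probes well above background on all 3 arrays of a telogen group or on at least 3 of 5 anagen arrays were tested (43395 of 56605). Probes matched RefSeq symbols through transcript accessions (32994 with 1 symbol, 23611 without), and the brightest probe stood for a gene. Symbols of 16 synthetases were matched through RefSeq synonyms. limma 3.58.1 (R 4.3.3) was fitted over 15 telogen arrays, and over 20 arrays with condition and phase, two-sided, with Benjamini-Hochberg adjustment over 18727 genes at 0.05; recovery was tested on simulated data. Named were called members, otherwise the 5 of smallest p per direction (2 outside the main comparisons), 16 fixed genes, Myc, and of each list up to 4 called or the 1 of smallest p; further values are given as chosen after they were seen. The members and lists were chosen with earlier results of these data known. Replicate numbers did not pair samples: of 30 same-number pairs 0 correlated above 0.1 (-0.14 to 0.06). Alternatives were other background correction, scaling, filters, probe averaging, variance models, blocks and left-out arrays.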

Additional observations from a re-analysis of the deposited data

Results flagged for a closer look

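In 6 of the 56 genes, 1 anagen array stood apart from the other 4 by more than the 95% critical value of Dixon's test for 5 samples, and chance flags about 1 in 20 groups. On the HFD 3M anagen array, Eif1a was at -0.65 against 0.92 to 1.52 on the others, and Eif3j1 at -0.24 against 1.51 to 2.00. On the ND 4d anagen array, Eif4e2 was at 3.45 against 4.23 to 4.38, and Eif3l at 3.33 against 3.55 to 3.61. Eif2s3y was at -0.76 on the HFD 4d anagen array and between 0.66 and 1.17 on the others. Eif3m was at 4.15 on the aged anagen array and between 3.85 and 3.90 on the others. The second probe of Eif4e2 differed between anagen and telogen in the opposite direction to the first (-0.36 ± 0.26 against 0.57 ± 0.23).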

How the results depend on the processing

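In the 8 telogen comparisons the number of members called was 0 under all 28 alternatives run for each. In anagen against telogen, where 2 members were called, of 1145 genes in all, the count was 5 with normexp (of 1275), quantile normalization (of 1223) or eBayes with a trend (of 1391), 4 with median scaling (of 989) or with probes well above background on all 20 arrays (of 1008), 6 with array weights (of 1761), 2 to 8 with 1 array left out, 0 when the 5 differences within conditions were tested against 0 (of 451) and 1 (of 317) in the 3 conditions with both phases on 1 slide, an alternative added after seeing the data. Eif2s1 and Eif4a2 had adjusted p of 0.0907 and 0.0836 in the test of 5 differences; their differences ranged from 0.83 to 1.15 and from -1.17 to -0.70 over 35 alternatives. Eif1ax passed under 10 alternatives, Eif4g2 under 6, Eif3a and Eif4a1 under 5 and Eif4e under 3. Of all calls 45.9% were above telogen, and 66% with median scaling. The members' median of 0.25 was 0.46 with median scaling, 0.11 to 0.34 with 1 array left out (lowest without the aged anagen array) and 0.37 without the ND 3M anagen and HFD 3M telogen replicate 3 arrays, also added later; in aged telogen the median of -0.10 was -0.25 with median scaling.

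With the replicate block, 0 members were called in each telogen comparison, and Eif2s1 in aged telogen kept its difference of -0.76 (adjusted p = 0.377). With slide as a term, aged differences turned for Eif3d (-0.30), Eif4a1 (-0.05), Eif4e1b (-0.27), Eif2s2 (0.07), Eif2ak4 (1.24), Eif2ak3 (0.17), Eif3a (0.30) and Eif4a2 (0.06), with the mean over probes for Eif4e1b (-0.16), and without aged replicate 3 for Eif2ak3 (-1.28 to 0.07 with 1 aged array left out); the cause was not tested. For 11 of the 18 members with several tested probes, the probes differed in sign in aged telogen, and for 3 in anagen. Signal over background limits Eif2ak4.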
